A study of Mus musculus with 6 samples.

Results

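The gene set described here held 42 genes that build or mark epithelial cells, picked by gene symbol and covering adhesion molecules, tight junction and polarity proteins, keratins, epithelial transcription and splicing regulators, proteases with their inhibitors, desmosome proteins, membrane traffic proteins, the mucin Muc1 and Prr15l. All 42 were measured, by 53 reporters, among 25729 gene symbols tested in all. They were compared between adipose tissue of obese and lean mice aged 9 weeks. The tissue is labelled eWAT, the usual abbreviation of epididymal white adipose tissue, which the labels do not spell out. The ob/ob group (3 samples) carried 2 copies of the obese mutation of Lep, which leaves no working leptin, and the ob/+ group (3 samples) carried 1 copy and served as the lean control. The labels name the background C57BLKS/J, but only for the reference channel, and list no treatment. Total RNA was amplified in 2 rounds and hybridised to two-colour arrays, with the sample in Cy5 and a pool of ob/+ RNA in Cy3 on all 6 arrays and no dye swap. Nothing states that samples came from separate animals, so p-values measure the spread between samples.

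Epithelial cells form sheets that seal one body compartment from another. They hold together through cadherins and desmosomes, close the gap between cells with claudins and other tight junction proteins, and carry a cytoskeleton of paired keratins. Membrane-bound serine proteases such as matriptase and prostasin act at the cell surface, where Kunitz-type inhibitors restrain them. Fat tissue is mostly adipocytes, vessels, fibroblasts and immune cells, none of them classical epithelium, and its surface is covered by mesothelium, a flat cell layer that also makes keratins.

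Values below are intensities in the authors' normalized units, given as the lowest, middle and highest sample of a group, or log2 ratios of sample over pool. A difference is the mean log2 ratio of ob/ob minus that of ob/+, with its standard error (SE, n = 3 per group). Adjusted p is from limma, corrected over all 39407 reporters tested, and a gene passed below 0.05. Median sample intensity was 0.11 to 0.15 per array, and intensities at or above 0.01 came in steps of 0.01, so sizes of change are coarse for dim genes. Across reporters, log2 ratios of any 2 ob/ob arrays had r = 0.83 to 0.893, and those of any 2 ob/+ arrays, each set against ob/+ RNA, had r = -0.308 to 0.065. The labels state the dyes, and the direction was kept. Adipocyte genes were bright, with the summed intensity of 7 markers at 85.4 to 94.3 in ob/+ and 49.8 to 63.1 in ob/ob. Lep itself rose by 2.12 ± 0.08 (log2, adjusted p = 0.000839). A transcript level does not test the genotype, since the mutant allele is still transcribed.

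Most of the epithelial genes were lower in obese tissue. Of the 42, 29 fell (69.0%), against 12.1% of all genes, and 25 of these fell at least 2-fold, against 3.86% of all genes. The share of all genes was larger among brighter ones. With mean intensity above 0.1, 26 of 36 epithelial genes fell, against 3433 of 16520 genes. The 42 genes were chosen with earlier results of these data known. These shares therefore describe the list and do not test whether epithelial genes fell more often than others. A fall of at least 8-fold was found for 11 (26.2%, against 0.482% of all genes): Mmp7, Cdh16, Prr15l, Esrp1, Cldn8, Cdh1, Epcam, Cldn3, Prss8, Crb3 and Krt18. With 0.05 added to both intensities before the ratio, 6 of the 42 fell at least 8-fold. St14 and Mal2 rose (4.76%, against 12.4% of all genes), both at least 2-fold, as did 3.57% of all genes, and the other 11 did not pass. The median difference was -1.62 for the 42 genes and 0.0 for all genes. All 3 ob/ob ratios lay below all 3 ob/+ ratios for 31 of the genes, against 19.9% of all genes, and above them for 3, against 20.2%, together 81.0% against 40.1%. In bulk tissue, fewer cells of a type and less RNA per cell cannot be told apart. The count of falls depended on the scaling. With the sample channel alone, centred on the median of each array, 27 fell and 2 rose. In that fit 4876 of the 25729 genes were called, 1606 of them lower. After quantile normalization of the log ratios, which forces all arrays to 1 distribution, Mmp7 alone of the 42 was still called lower and neither rise passed. Of all genes, 244 were called lower there. The count of falls also varied with the arrays used, from 19 without ob/ob replicate 3 to 27. Over the same fits, 1518 to 2617 of all genes were called lower.

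**Figure D1:**
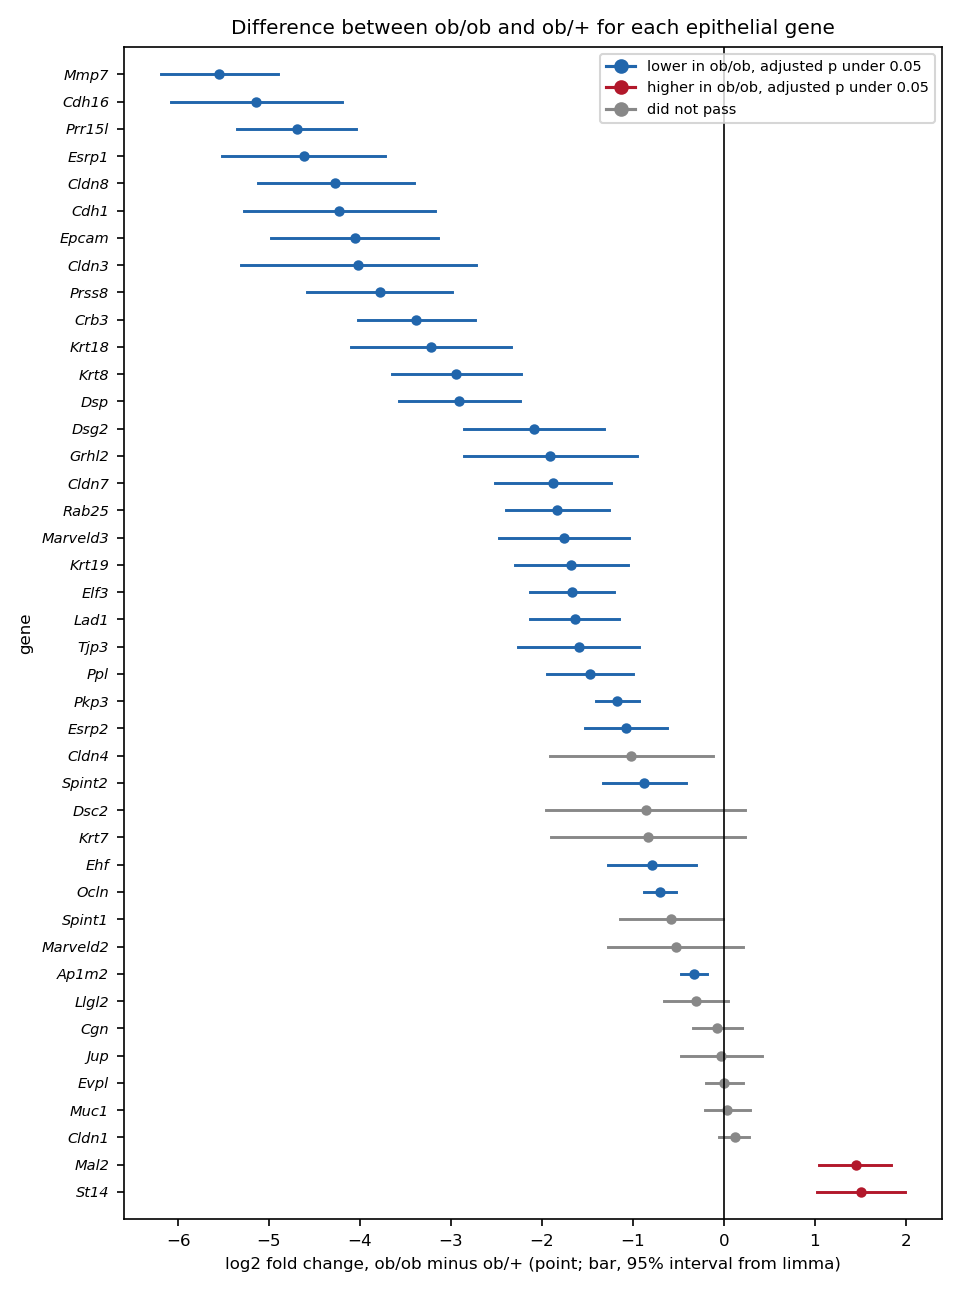
The plot of differences shows each of the 42 epithelial genes on a row, with log2 fold change (ob/ob minus ob/+) on the horizontal axis, a point for the estimate and a bar for the 95% interval from limma. Of the 42 genes, 29 lie to the left and passed (blue), 2 lie to the right and passed (red), and 11 did not pass (grey).

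Promoter sequence was available for 23 of the 42 genes, as 29 windows of 300 bases, 1 or 2 per gene, from RefSeq (GRCm38.p6), 250 before the gene start and 50 from it on. They are shown because many of the genes fell together. CAGGTG, the core sequence bound by the ZEB and SNAI repressors of epithelial genes, was searched on both strands, as was AACCNGTT, the core bound by grainyhead-like factors such as Grhl2. CAGGTG occurred in at least 1 window of 18 of the 23 genes (78.3%), against 22.6% of the 27025 genes in the table, and in 22 of the 29 windows, against 20.2% of 32851 windows. A window with at least 2 copies occurred in 9 of the genes (39.1%), against 3.3%, and 7 of these 9 fell. AACCNGTT occurred in 3 genes (13%: Cgn, Rab25 and Muc1), against 2.3%. Rab25 fell, and Cgn and Muc1 did not pass. Of the 18 genes with CAGGTG, 14 fell, and of the 5 without it, 1 fell. The shares that fell among all genes with and without CAGGTG were not computed, and a link between motif and fall was not tested. No window was available for Cdh1, Cdh16, Cldn8, Esrp1, Prr15l and Prss8, which all fell at least 8-fold. The windows of 5 genes follow, chosen as examples from the 7 that fell and have at least 2 copies, 5′ to 3′ on the gene's strand, with each match in capitals (CACCTG is CAGGTG on the other strand, and the longer capitals in Rab25 mark AACCNGTT).
Crb3, chr17:57061951-57062250, plus strand: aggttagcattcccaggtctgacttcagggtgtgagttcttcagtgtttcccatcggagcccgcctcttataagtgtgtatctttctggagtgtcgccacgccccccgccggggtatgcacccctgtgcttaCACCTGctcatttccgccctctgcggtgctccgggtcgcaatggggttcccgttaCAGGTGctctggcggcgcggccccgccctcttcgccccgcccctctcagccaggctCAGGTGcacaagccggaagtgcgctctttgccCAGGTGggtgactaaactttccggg
Epcam, chr17:87635729-87636028, plus strand: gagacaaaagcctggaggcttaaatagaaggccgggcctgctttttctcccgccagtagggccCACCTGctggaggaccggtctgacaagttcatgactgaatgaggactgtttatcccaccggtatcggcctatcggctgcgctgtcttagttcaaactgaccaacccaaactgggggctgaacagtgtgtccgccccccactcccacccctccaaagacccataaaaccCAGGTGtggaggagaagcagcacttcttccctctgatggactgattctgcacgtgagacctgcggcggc
Rab25, chr3:88548230-88548529, minus strand: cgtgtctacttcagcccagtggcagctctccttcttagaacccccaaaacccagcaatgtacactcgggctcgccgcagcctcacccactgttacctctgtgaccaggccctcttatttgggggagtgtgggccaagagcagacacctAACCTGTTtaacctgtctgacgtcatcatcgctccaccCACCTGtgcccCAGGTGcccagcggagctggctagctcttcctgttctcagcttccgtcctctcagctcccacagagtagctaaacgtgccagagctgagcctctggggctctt
Spint2, chr7:29281928-29282227, minus strand: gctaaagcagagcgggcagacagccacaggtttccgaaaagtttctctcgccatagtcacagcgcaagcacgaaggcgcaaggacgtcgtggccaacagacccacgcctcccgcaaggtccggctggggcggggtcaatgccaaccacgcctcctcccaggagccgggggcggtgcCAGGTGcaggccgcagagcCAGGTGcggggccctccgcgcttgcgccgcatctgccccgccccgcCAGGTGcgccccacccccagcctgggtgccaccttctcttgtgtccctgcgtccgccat
Ap1m2, chr9:21312284-21312583, minus strand: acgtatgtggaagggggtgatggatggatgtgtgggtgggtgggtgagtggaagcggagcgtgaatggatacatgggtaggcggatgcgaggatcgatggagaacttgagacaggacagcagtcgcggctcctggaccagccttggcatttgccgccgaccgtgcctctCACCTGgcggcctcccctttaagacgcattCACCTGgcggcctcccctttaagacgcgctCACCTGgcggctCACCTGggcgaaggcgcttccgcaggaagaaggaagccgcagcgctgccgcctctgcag
The 4 matches of Crb3 started at -118, -63, -7 and 25 from the gene start, and the 4 of Ap1m2 at -81, -51, -21 and -9. A match describes the letters of a window and is not evidence of binding. Cldn4 and Muc1 also have a window with 2 copies and did not pass. Among the 5 genes shown, all chosen as lower in ob/ob, Crb3 and Ap1m2 share the count of 4 matches and fell 10.4-fold and 1.26-fold.

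All 3 adhesion molecules fell, with a median difference of -4.23. Cdh1, which encodes E-cadherin, the calcium-dependent adhesion molecule of epithelial junctions, had intensities of 0.88, 1.66 and 2.29 in the ob/+ samples and 0.07, 0.09 and 0.09 in the ob/ob samples. The groups lay far apart, and the fall was 18.7-fold (-4.23 ± 0.41, adjusted p = 0.00536). Epcam, the epithelial cell adhesion molecule, had intensities of 0.4, 0.77 and 0.83 in ob/+ and 0.03, 0.04 and 0.04 in ob/ob, a 16.7-fold fall (-4.06 ± 0.36, adjusted p = 0.00461). Cdh16, a cadherin known from kidney and other ducts, read 1.11, 1.56 and 2.38 in ob/+ and 0.04 in all 3 ob/ob samples. Its fall was 35.3-fold (-5.14 ± 0.36, adjusted p = 0.00308), and at least 31.1-fold if rounding worked against it.

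Of the 5 claudins, which form the strands of tight junctions, 3 fell and 2 did not pass. Cldn3, a sealing claudin, gave intensities of 1.77, 2.99 and 5.32 in ob/+ and of 0.12, 0.2 and 0.29 in ob/ob, and fell 16.2-fold (-4.02 ± 0.50, adjusted p = 0.00889). Cldn8, a claudin of the distal nephron and other tight epithelia, fell 19.3-fold (-4.27 ± 0.33, adjusted p = 0.00365). Its ob/ob intensities were 0.00518, 0.00912 and 0.00917, below the step of the table, and the size of the fall is uncertain: the difference was -3.14 with 0.01 added to both intensities and -1.77 with 0.05 added. Cldn7, which also sits at the basolateral side of epithelial cells, read 0.21, 0.3 and 0.43 in ob/+ and 0.06, 0.08 and 0.08 in ob/ob, and fell 3.68-fold (-1.88 ± 0.25, adjusted p = 0.0102). Cldn4 lay wholly lower in ob/ob, at 0.2, 0.23 and 0.26 against 0.4, 0.43 and 0.92, but did not pass (-1.02 ± 0.35, adjusted p = 0.113, 95% interval -1.91 to -0.12). Cldn1 differed by 0.12 ± 0.06 (adjusted p = 0.264), with a 95% interval from -0.05 to 0.28. Its other reporter, with a mean intensity of 0.0106, differed by -0.29 ± 0.3 (adjusted p = 0.527).

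Among the 5 other tight junction proteins, 3 fell and 2 did not pass, with a median difference of -0.70. Tjp3, the scaffold ZO-3 beneath the junction, read 0.59, 0.99 and 0.99 in ob/+ and 0.22, 0.28 and 0.31 in ob/ob, a 3.02-fold fall (-1.59 ± 0.26, adjusted p = 0.0167). Ocln, the transmembrane protein occludin, fell 1.63-fold (-0.70 ± 0.07, adjusted p = 0.00507), and its other reporter, below the step of the table, did not pass (-0.86 ± 0.31, adjusted p = 0.128). Marveld3, a relative of occludin, fell by 1.76 ± 0.27 on the log2 scale (adjusted p = 0.0155). Its other reporter differed by -0.29 ± 0.11 (adjusted p = 0.143). Marveld2, which encodes tricellulin at the corners where cells meet, read 32.95, 36.69 and 38.79 in ob/+ and 19, 31.42 and 32.97 in ob/ob (-0.53 ± 0.29, adjusted p = 0.268). Its other reporter was far dimmer, averaging 0.247 in ob/+ and 0.173 in ob/ob (-0.4 ± 0.34, adjusted p = 0.5). The level of Marveld2 therefore rests on the reporter. Cgn, which encodes the plaque protein cingulin, differed by -0.07 ± 0.10 (adjusted p = 0.694).

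Of the 2 polarity genes, 1 fell and 1 did not pass. Crb3, which marks the apical surface, read 0.31, 0.49 and 0.51 in ob/+ and 0.03, 0.04 and 0.04 in ob/ob, a 10.4-fold fall (-3.38 ± 0.25, adjusted p = 0.00327). Llgl2, which acts at the basolateral side, differed by -0.31 ± 0.14 (adjusted p = 0.204, 95% interval -0.66 to 0.05).

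Keratins 8 and 18, which pair in simple epithelia, fell alongside keratin 19, while keratin 7 did not pass. Krt8 had intensities of 1.49, 2.25 and 2.53 in ob/+ and 0.22, 0.27 and 0.32 in ob/ob, and fell 7.67-fold (-2.94 ± 0.27, adjusted p = 0.00499). Krt18 had 1.04, 1.69 and 2.06 in ob/+ and 0.12, 0.16 and 0.2 in ob/ob, and fell 9.32-fold (-3.22 ± 0.34, adjusted p = 0.00625). The groups were well separated for both partners. Krt19 stood at 2.08, 2.29 and 2.79 in ob/+ and 0.58, 0.77 and 1.01 in ob/ob, a 3.20-fold fall (-1.68 ± 0.24, adjusted p = 0.0127). Krt7, a keratin of ducts and mesothelium, stood at 0.91, 1.23 and 1.56 in ob/+ and 0.36, 0.77 and 1.03 in ob/ob, and its groups overlapped (-0.83 ± 0.41, adjusted p = 0.234, 95% interval -1.90 to 0.23). Its other reporter differed by -0.02 ± 0.13.

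All 4 keratins had the same order within the ob/ob group, replicate 1 highest and replicate 2 lowest. The Krt7 log2 ratios were -0.24, -1.66 and -0.70 in ob/ob replicates 1, 2 and 3, and 0.00, 0.24 and -0.35 in ob/+ replicates 1, 2 and 3. The Krt19 ratios in the same ob/ob order were -1.29, -2.10 and -1.60. In ob/+ replicates 1, 2 and 3, Krt8 gave -0.53, 0.16 and 0.18, Krt18 -0.65, 0.36 and 0.21, and Krt19 -0.13, -0.07 and 0.25. Each of these was lowest in ob/+ replicate 1, whereas Krt7 was lowest in ob/+ replicate 3. The ob/ob order of the keratins was found in 10 of the 12 mesothelial markers (83.3%). It was found in 71.4% of the adipocyte list, 62.5% of the endothelial list, 42.9% of all 42 epithelial genes and 16% of all genes tested. Msln, the mesothelial surface protein mesothelin, had ob/ob ratios of -0.09, -1.84 and -0.78. With 3 samples no correlation was computed.

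**Figure D2:**
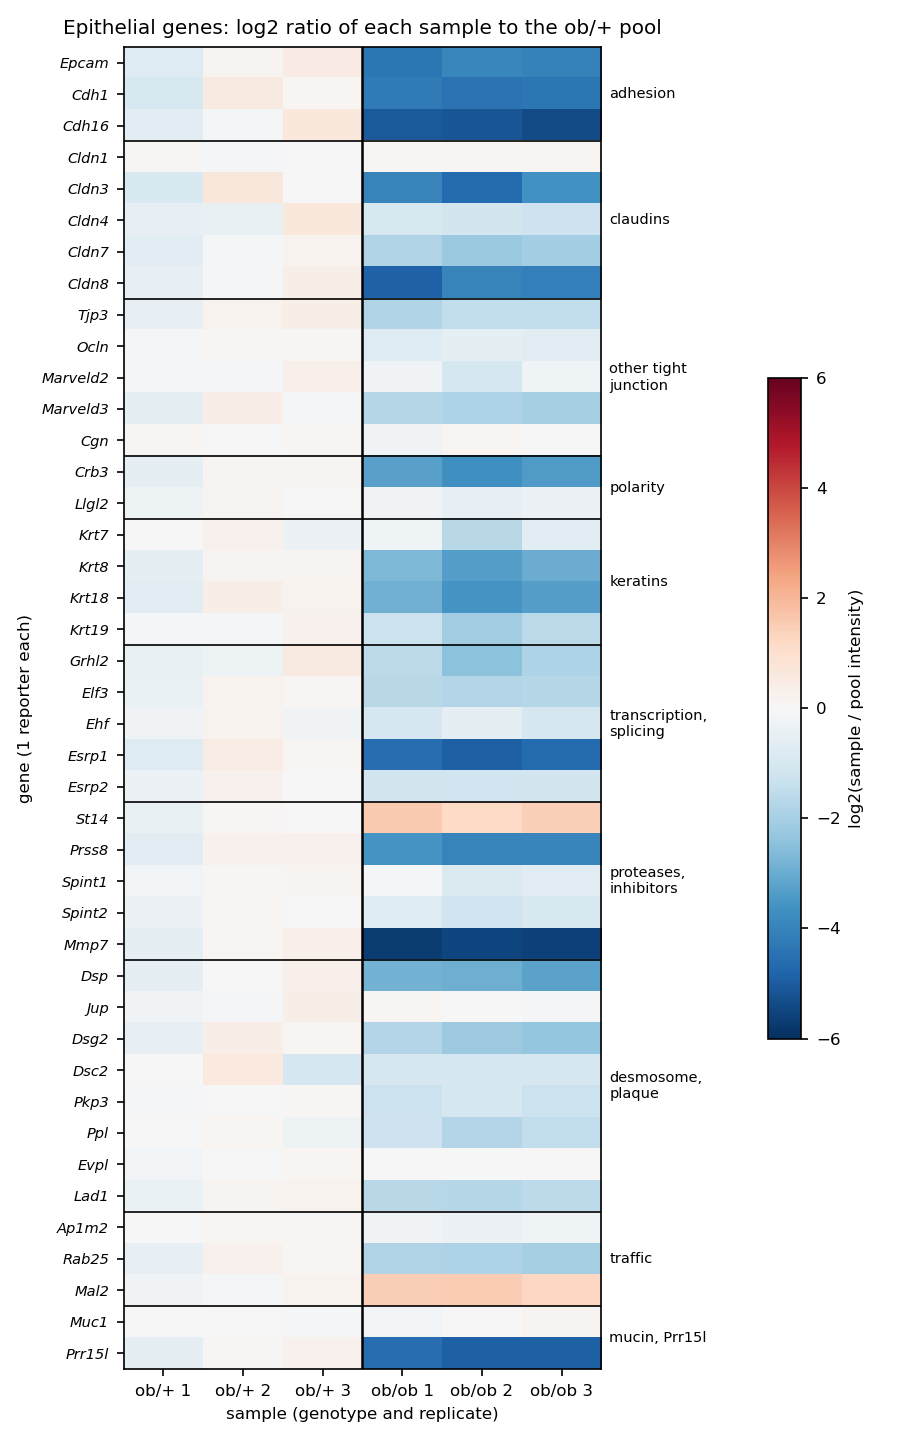
The plot of ratios shows each epithelial gene in a row and each of the 6 samples in a column, coloured by log2 of sample over pool intensity, with blue below the pool and red above it. The 3 ob/ob columns are blue for most genes and red for St14 and Mal2, and ob/+ replicate 1 is pale blue for many genes.

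All 5 regulators of epithelial transcription and splicing fell, with a median of -1.67. Esrp1, which encodes a splicing factor that keeps epithelial isoforms, read 0.76, 1.42 and 1.8 in ob/+ and 0.04, 0.05 and 0.05 in ob/ob, a 24.6-fold fall (-4.62 ± 0.35, adjusted p = 0.00349). Its other reporter, however, differed by -0.10 ± 0.05 (adjusted p = 0.264). Esrp2, its paralog, fell 2.10-fold (-1.07 ± 0.18, adjusted p = 0.0172). Elf3, an ETS factor of simple epithelia, read 0.4, 0.62 and 0.65 in ob/+ and 0.15, 0.15 and 0.16 in ob/ob, and fell 3.19-fold (-1.67 ± 0.18, adjusted p = 0.00638). Grhl2, a grainyhead-like activator of junction genes, was dim, at 0.08, 0.09 and 0.19 in ob/+ and 0.02, 0.03 and 0.03 in ob/ob (-1.91 ± 0.37, adjusted p = 0.0264), and its other reporter missed the threshold (-1.31 ± 0.33, adjusted p = 0.0534). Ehf, another epithelial ETS factor, fell by 0.79 ± 0.19 on the log2 scale (adjusted p = 0.0441), and rounding could bring this to 0.23. Leaving out any 1 array ended the call of Ehf, with adjusted p up to 0.141.

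Of 5 proteases and inhibitors, 3 fell, 1 rose and 1 did not pass. Mmp7, the matrix metalloproteinase matrilysin made by glandular epithelium, had the largest fall of the 42 genes: intensities were 1.83, 2.99 and 3.13 in ob/+ and 0.05 in all 3 ob/ob samples, a 46.7-fold fall (-5.55 ± 0.25, adjusted p = 0.00142). Prss8, which encodes the membrane-anchored protease prostasin, read 0.41, 0.76 and 0.82 in ob/+ and 0.04, 0.04 and 0.05 in ob/ob, a 13.8-fold fall (-3.78 ± 0.31, adjusted p = 0.00398). St14, which encodes matriptase, the protease that acts with prostasin, went the other way. It read 0.31, 0.4 and 0.44 in ob/+ and 0.79, 1.04 and 1.19 in ob/ob, a 2.85-fold rise (1.51 ± 0.18, adjusted p = 0.0086), and the groups did not overlap. Spint2, the Kunitz-type inhibitor HAI-2, read 2.35, 2.9 and 2.97 in ob/+ and 1.24, 1.57 and 1.61 in ob/ob, and fell 1.83-fold (-0.88 ± 0.18, adjusted p = 0.0294). Spint1, the related inhibitor HAI-1, read 0.24, 0.25 and 0.27 in ob/+ and 0.12, 0.16 and 0.29 in ob/ob (-0.58 ± 0.22, adjusted p = 0.144), so that 1 ob/ob sample lay above every ob/+ sample in intensity.

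Of 8 desmosome and plaque genes, 5 fell and 3 did not pass. Dsp, which encodes desmoplakin and ties desmosomes to keratins, read 0.28, 0.42 and 0.5 in ob/+ and 0.04, 0.05 and 0.05 in ob/ob by its brightest reporter, a 7.50-fold fall (-2.91 ± 0.26, adjusted p = 0.00463). Its other reporters were dim, both averaging 0.0533 in ob/+, with 0.0533 and 0.0433 in ob/ob. The first of them passed as higher in ob/ob (0.39 ± 0.08, adjusted p = 0.0354), and the second differed by 0.03 ± 0.16 (adjusted p = 0.953). Neither showed the fall, which rests on the brightest reporter. Pkp3, a plakophilin of the desmosomal plaque, fell 2.25-fold by its brightest reporter (-1.17 ± 0.09, adjusted p = 0.00384) and differed by 0.00 ± 0.04 by the other (adjusted p = 0.987). The first read 0.61, 0.75 and 0.82 in ob/+ and 0.23, 0.29 and 0.33 in ob/ob, with no overlap. Dsg2, the desmosomal cadherin of simple epithelia, fell by both reporters (-2.09 ± 0.30, adjusted p = 0.0123, and -1.82 ± 0.20, adjusted p = 0.00683). Ppl, which encodes the linker periplakin, read 0.31, 0.36 and 0.39 in ob/+ and 0.09, 0.12 and 0.13 in ob/ob, a 2.77-fold fall (-1.47 ± 0.18, adjusted p = 0.00883). Lad1, which encodes the anchoring filament protein ladinin, read 0.18, 0.28 and 0.29 in ob/+ and 0.07, 0.07 and 0.08 in ob/ob, a 3.12-fold fall (-1.64 ± 0.19, adjusted p = 0.00748). Jup, which encodes plakoglobin, shared by desmosomes and adherens junctions, differed by -0.03 ± 0.17 (adjusted p = 0.972). Evpl, which encodes envoplakin, the partner of periplakin, differed by 0.00 ± 0.08 (95% interval -0.20 to 0.21). Dsc2, a desmosomal cadherin, lay at 0.01 to 0.03 in all 6 samples, at the step of the table (-0.86 ± 0.42, adjusted p = 0.23).

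Of 3 membrane traffic genes, 2 fell and 1 rose, and of the remaining pair Prr15l fell and Muc1 did not pass. Rab25, a small GTPase of apical recycling in epithelia, read 0.14, 0.2 and 0.24 in ob/+ and 0.05, 0.05 and 0.06 in ob/ob, a 3.55-fold fall (-1.83 ± 0.22, adjusted p = 0.00835). Ap1m2, the epithelial adaptor subunit for basolateral sorting, fell by 0.33 ± 0.05 on the log2 scale (adjusted p = 0.0168), which rounding could reduce to 0.11. Mal2, which acts in transport across polarised cells, rose: it read 0.44, 0.47 and 0.61 in ob/+ and 1.28, 1.31 and 1.46 in ob/ob, a 2.72-fold rise (1.45 ± 0.15, adjusted p = 0.00635). Prr15l, which encodes a proline-rich protein, read 0.88, 1.3 and 1.54 in ob/+ and 0.04, 0.04 and 0.05 in ob/ob, a 25.8-fold fall (-4.69 ± 0.25, adjusted p = 0.00189). Muc1, the apical transmembrane mucin, differed by 0.04 ± 0.10 (95% interval -0.21 to 0.29).

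**Figure D3:**
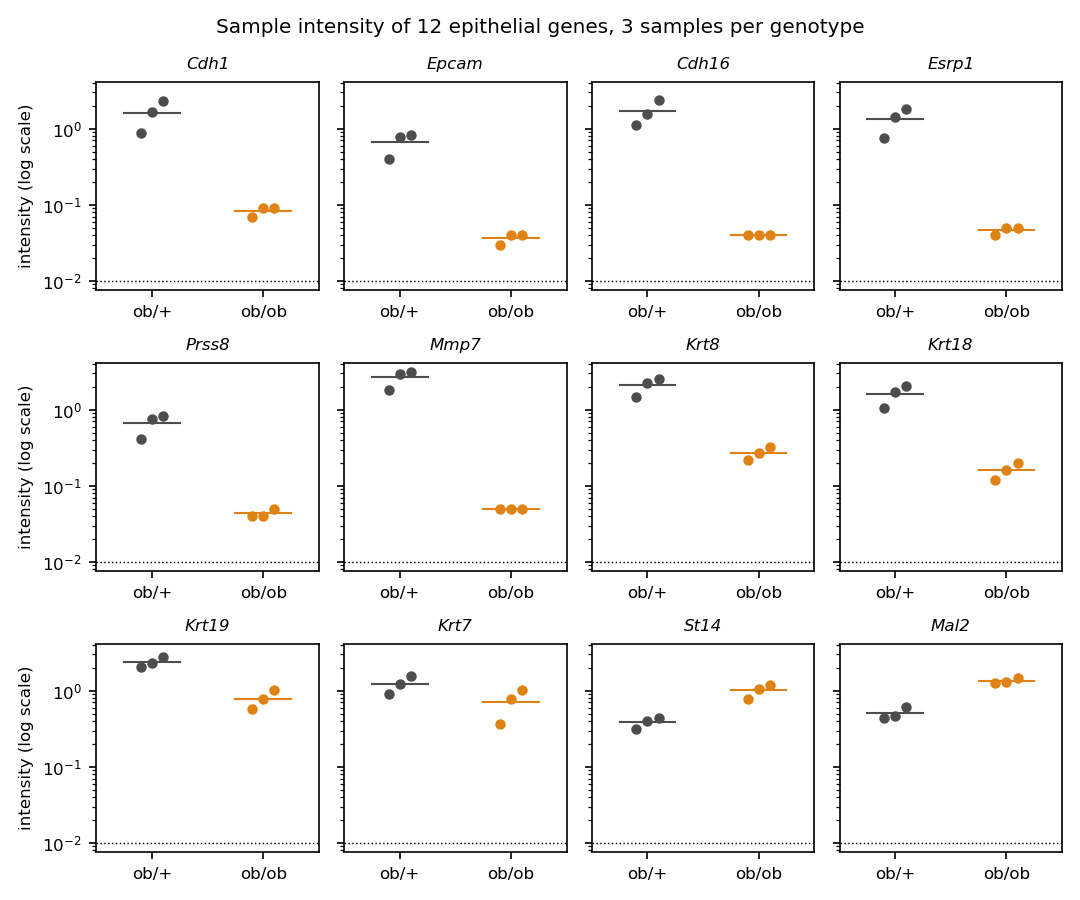
The plot of intensities shows sample intensity on a log10 axis for 12 epithelial genes, with a point per sample, a solid line at the group mean, the group in colour and a dotted line at the rounding step of 0.01. For Cdh1, Cdh16 and Mmp7 the ob/ob points sit below 0.1 and the ob/+ points above 0.8, and for St14 and Mal2 the ob/ob points lie above the ob/+ points.

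Genes that act beside the 42 were counted in the same fit. Of 106 further epithelial genes tested, 33 fell, 11 rose and 62 did not pass, with a median difference of -0.17. Among 40 other junction and polarity genes, 12 fell, 4 rose and 24 did not pass. The named falls were Cldn11 (-2.87 ± 0.12), which is known from Sertoli cells and myelin, Ildr1 (-2.68 ± 0.43), which encodes an angulin of tricellular junctions, and Patj (-1.73 ± 0.22), a Crumbs complex scaffold. Ctnnb1, the shared catenin of all adherens junctions, differed by 0.22 ± 0.08 (adjusted p = 0.122), and Tjp1, the scaffold ZO-1, by -0.18 ± 0.16 (adjusted p = 0.5). Of 15 other keratins, 2 fell, 3 rose and 10 did not pass, with Krt20 at -1.24 ± 0.16 and Krt80 at 1.04 ± 0.10. Over all genes, 12.1% fell and 12.4% rose, and the keratin counts lie near these shares. Of 9 other desmosome genes, 2 fell and 2 rose, among them Perp (-2.58 ± 0.40), a desmosomal membrane protein, and Pkp1 (1.5 ± 0.21), a plakophilin.

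Of 14 other epithelial transcription factors, 5 fell, 0 rose and 9 did not pass, the largest fall among those that passed being that of Grhl1 (-1.36 ± 0.17). Of 13 other proteases, inhibitors and substrates, 6 fell and 1 rose. Wfdc2, which encodes a secreted four-disulfide core protein of ducts, fell by 3.70 ± 0.15 on the log2 scale. Scnn1a, a subunit of the epithelial sodium channel that prostasin can activate, fell by 2.31 ± 0.16, and Tmprss2, a membrane serine protease, fell by 2.01 ± 0.43. Of 15 other membrane and traffic genes, 6 fell and 1 rose, led by Bspry (-4.03 ± 0.46), Tmem30b (-3.29 ± 0.33) and the microvillus protein Vil1 (-2.76 ± 0.23). Mesenchymal genes and repressors of epithelial genes mostly did not pass, with 2 of 13 lower, 2 higher and a median of -0.06, again near the shares of all genes. Of these, S100a4 rose by 1.74 ± 0.23 and Tagln fell by 0.98 ± 0.20 on the log2 scale. Twist1 was the other rise, by 0.26 ± 0.06 (adjusted p = 0.0421).

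Some markers of other cell types also fell, where 12.1% of all genes did. Of 18 epididymal secretory genes, 4 fell, 0 rose and 14 did not pass, and their summed intensity was 24.6 to 86.1 in ob/+ and 3.15 to 3.64 in ob/ob. Crisp1, a sperm-coating protein of the epididymis, averaged 13 in ob/+ and 0.0733 in ob/ob (-7.07 ± 0.61, adjusted p = 0.00443). Of 16 genes of motile cilia, 9 fell and 7 did not pass, with sums of 18.4 to 26.2 in ob/+ and 7.29 to 9.82 in ob/ob. Foxj1, the master regulator of motile cilia, fell by 4.72 ± 0.30 on the log2 scale (adjusted p = 0.00266). Of 12 mesothelial markers, 5 fell and 7 did not pass, with sums of 25.4 to 30.2 and 7.17 to 15.4. Wt1, a mesothelial transcription factor, fell by 1.4 ± 0.18, while Msln differed by -0.87 ± 0.48 (adjusted p = 0.286). The part of such cells in the epithelial differences was not tested.

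Mammary and prostate genes were counted as markers of other glands, and the mammary genes were dim in both groups. Of 8 mammary secretory genes, 1 fell, and their sums were 0.5 to 0.54 in ob/+ and 0.41 to 0.59 in ob/ob. It was Lalba, whose means of 0.07 in ob/+ and 0.04 in ob/ob lie close to the step of 0.01. Of 7 prostate and seminal vesicle genes, 1 fell, with sums of 1.74 to 2.14 and 1.12 to 1.32. That gene was Svs5, which was not dim and averaged 1.39 in ob/+ and 0.697 in ob/ob (-0.79 ± 0.08, adjusted p = 0.00606). The mammary and prostate counts both lie near the 12.1% of all genes that fell. Of 7 adipocyte markers, 3 fell and 4 did not pass. All 8 macrophage markers rose, with sums of 17.9 to 19.9 in ob/+ and 59.7 to 134 in ob/ob, the same direction as St14 and Mal2, and the part of macrophages in those rises was not tested. Of 8 endothelial markers, 0 passed, and their sums overlapped at 16.3 to 19.3 and 14.2 to 19.

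The epithelial genes also varied among the lean samples. Their median SD of log2 ratios was 0.377 in ob/+, against 0.115 for all genes, and 0.188 in ob/ob, against 0.128. In ob/+ replicate 1 they were low together: 34 of the 42 (81.0%) had their lowest ob/+ ratio there, against 20.1% of all genes. The median ratio of the 42 genes was -0.43, 0.11 and 0.14 in ob/+ replicates 1, 2 and 3, and -1.45, -1.73 and -1.54 in ob/ob replicates 1, 2 and 3. Cdh1 gave -0.96, 0.52 and 0.12 in the ob/+ replicates and -4.22, -4.45 and -4.32 in the ob/ob replicates. The spread of Cdh1 within ob/+ was wider than within ob/ob, and the groups lay far apart.

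Cilia genes had their lowest ob/+ ratio in replicate 1 in 13 of 16 cases (81.2%) and epididymal genes in 9 of 18 (50.0%). Mesothelial markers did so in 1 of 12 (8.33%) and adipocyte markers in 0 of 7. Crisp1 gave -1.4, 0.91 and -0.06 in ob/+ replicates 1, 2 and 3, and Foxj1 gave -0.54, -0.08 and 0.59. Without ob/+ replicate 1, 29 of the 31 called epithelial genes kept call and direction, while the count of all genes called went from 6322 to 3286.

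**Figure D4:**
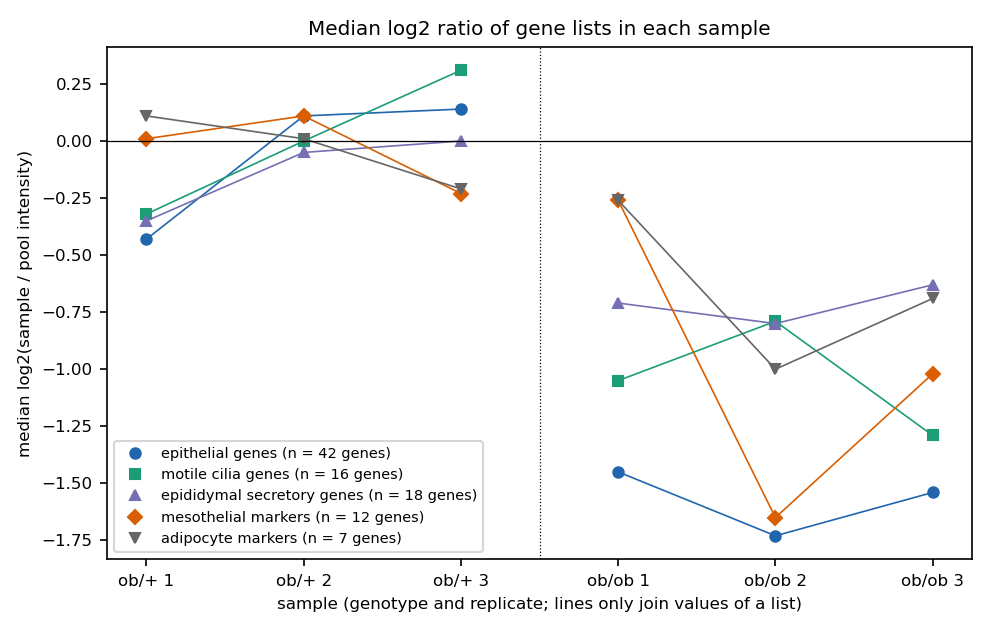
The plot of list medians shows the median log2 ratio of sample over pool in each of the 6 samples for the 42 epithelial genes and for cilia, epididymal, mesothelial and adipocyte lists. The epithelial median is -0.43 in ob/+ replicate 1 and 0.11 and 0.14 in the other ob/+ samples, and lies at or below -1.45 in ob/ob.

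Reporters of one gene did not always give 1 answer. Of the 42 genes, 32 had 1 reporter and 10 had 2 or 3, and reporters differed in call for 6 of these 10: Dsp, Esrp1, Grhl2, Marveld3, Ocln and Pkp3. Among the 31 genes called in either direction, 21 passed without any 1 of the 6 arrays. The others were Cldn7, Tjp3, Marveld3, Krt19, Grhl2, Ehf, Esrp2, Spint2, Dsg2 and Ap1m2, with adjusted p of 0.05 to 0.141 at their highest. Of the 11 genes that fell at least 8-fold, 8 had a mean ob/ob intensity of 0.05 or less, and rounding alone could reduce the differences of these 11 by 0.05 to 0.24 on the log2 scale. Rounding could end the direction of 0 called genes.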

How the data were processed

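The submitters' processing notes name Agilent Feature Extraction 8.5.1.1. For each of the 6 two-colour arrays the authors deposited a normalized intensity per reporter and channel, a p-value per reporter and array, and log10 ratios in a matrix that carries the replicate numbers. How the deposited values were background-corrected and normalized is not given in the sources used here. Column numbers in the table differ from the labels' replicate numbers, so intensities were assigned to groups only, with 0 columns left unassigned, and ratios by replicate came from the deposited log10 values converted to log2. The table calls the controls wt and the series' design text speaks of other tissue and mice; the labels were followed.

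The fit used limma 3.58.1 in R 4.3.3 (lmFit, eBayes, two-sided) with Benjamini-Hochberg adjustment over 39407 of 39507 reporters, those with values on at least 2 arrays of each group. A gene was its brightest reporter, and gene symbols were updated for 3147 reporters. The script was tested on simulated data. Motifs and summaries were computed with Python 3.11.15 and figures drawn with matplotlib 3.10.9. The number of arrays limits the precision, and detection limits are unknown.

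The 42 genes and all lists were chosen with earlier results of these data known. All 42 are named; of other genes, the text draws on up to 3 called genes with the largest change and the 2 brightest that did not pass in each list, and Lep. Alternatives were other scalings, pseudocounts, filters, priors, reporter rules, thresholds, a replicate block and leaving out each array.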

Additional observations from a re-analysis of the deposited data

Results flagged for a closer look

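Besides intensities, the authors deposited a p-value per array that sets sample against pool. Its test is not described in the labels, and it played no part in the calls. It was under 0.01 for 32, 32 and 31 of the 42 epithelial genes on the 3 ob/ob arrays, against 18.5% to 21.1% of all genes. On the ob/+ arrays it was under 0.01 for 14, 4 and 2 of the 42, against 1.08% to 1.57% of all genes. The column is noted because it lies outside the main measurement. It comes from the same arrays as the ratios and gives no separate support for the calls. The pool is ob/+ RNA, so lower counts on the ob/+ arrays follow from the design.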

How the results depend on the processing

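The count of all genes called (6322) became 2125 at an adjusted p under 0.01, 1912 with a 2-fold minimum, 555 after quantile normalization, 2579 with the replicate block and 3129 to 5359 when each array was left out. Leaving out ob/+ replicate 1 gave 3286 and ob/+ replicate 3 gave 3522, while leaving out ob/ob replicate 2 gave 4037 and ob/ob replicate 3 gave 3129. The 29 epithelial falls became 19 at an adjusted p under 0.01, 1 after quantile normalization, 17 with the replicate block and 19 to 27 without each array. The 2 rises became 0 after quantile normalization and 0 with the replicate block. Quantile normalization gives all arrays 1 distribution, where SDs of the log2 ratios were 0.21 to 0.23 in ob/+ and 0.57 to 0.63 in ob/ob. The median difference (-1.62) became -1.05 with the dimmest reporter of each gene, -1.03 with a pseudocount of 0.05, -0.98 after quantile normalization and -1.80 to -1.50 without each array. The lowest ob/+ array median lay 1.02 above the highest ob/ob array median, a gap that quantile normalization made 0.05 and the sample channel alone made 1.59. With the dimmest reporter, Dsp became 0.03 (adjusted p = 0.953) and Pkp3 0.00 (adjusted p = 0.987). Cldn4 passed with reporters of mean intensity above 0.1 only (adjusted p = 0.0393) or without those below the median (adjusted p = 0.0321). Without ob/+ replicate 3, Cldn4 (adjusted p = 0.0385) and Dsc2 (adjusted p = 0.038) passed, and without ob/ob replicate 1, Spint1 did (adjusted p = 0.0403). Ehf was lost with a pseudocount of 0.05 (adjusted p = 0.0545) and with the sample channel alone (adjusted p = 0.0598), and Ap1m2 with the sample channel alone (adjusted p = 0.819). The deviations of same-numbered samples from their group means correlated at 0.0617, -0.0624 and 0.00346. With 3 samples per group, these values cannot decide whether the numbers pair the samples. For lost calls the cause was not tested. The count of falls of at least 8-fold (11) was 6 with a pseudocount of 0.05 and 11 with 0.01. Steps of 0.01 limit the size of change for dim genes.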
